A study of Rattus norvegicus with 24 samples.

Results

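The 9 genes described here are ones that astrocytes use to handle glutamate, water and cell-to-cell coupling, or that mark astrocytes as a class, in rat brain. They are Slc1a2, Slc1a3, Glul, Aqp4, Gja1, Gjb6, S100b, Ntsr2 and Aldh1l1. They were chosen by symbol, are 9 of the 29539 genes in the count table, and all 9 were among the 14421 genes with enough counts to be tested. The libraries were poly(A)-selected, strand-preserving RNA-seq libraries of total RNA from tissue labelled only as brain, 8 in each of 3 groups, with 8911339 to 12383368 counted reads per library. The SKF group came from a stab-wound model of traumatic brain injury in the forebrain, with SKF-81297, an agonist selective for D1-like dopamine receptors, injected into the peritoneum daily on 3 days and begun 1 h after injury. The Vehicle group is named by that word alone and is read here as the wounded group given the carrier. The Normal Control group is named by those words alone, with no statement of a sham operation. Strain, age, sex, brain region, dose, time of collection, and whether the 8 libraries of a group came from separate rats are not given in the labels, so each p-value measures the spread between these libraries, which may in part be technical.

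Astrocytes clear glutamate from synapses through the transporters GLT-1, encoded by Slc1a2, and GLAST, encoded by Slc1a3. Glutamine synthetase, encoded by Glul, turns the captured glutamate and ammonia into glutamine, which is returned to neurons. Aquaporin-4, encoded by Aqp4, lines the astrocyte endfeet on blood vessels, and the connexins of Gja1 and Gjb6 join neighbouring astrocytes through gap junctions.

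In both wounded groups 8 of these genes were lower than in the Normal Control group and 1, Glul, was higher. All 9 passed the test in SKF against Normal Control and all 9 passed in Vehicle against Normal Control (edgeR quasi-likelihood test, Benjamini-Hochberg adjusted p under 0.05 over all genes tested). Such calls were common, with 50.2% of all genes called in SKF against Normal Control (24.7% lower, 25.5% higher) and 54.0% in Vehicle against Normal Control (27.1% lower, 26.9% higher). The median log2 fold change of the 9 genes was -0.73 in SKF and -0.79 in Vehicle, beside a median of -0.01 over all genes in both comparisons, which share their Normal Control libraries. Between SKF and Vehicle 0 of 9 passed, 0% of all genes were called, and none of the 9 had an unadjusted p under 0.05. On the TPM scale (transcript abundance corrected for gene length, with equal library totals) the split of calls over all genes was 4996 higher and 2296 lower in SKF, and 5476 higher and 2408 lower in Vehicle, both against Normal Control, and the median gene shifted by 0.09 in SKF and 0.11 in Vehicle. Relative to that shift the direction of all 9 genes was as on the count scale, with Slc1a3 nearest 0 at -0.25 in SKF and -0.38 in Vehicle. In whole tissue, fewer astrocytes and less RNA per astrocyte cannot be told apart.

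**Figure D1:**
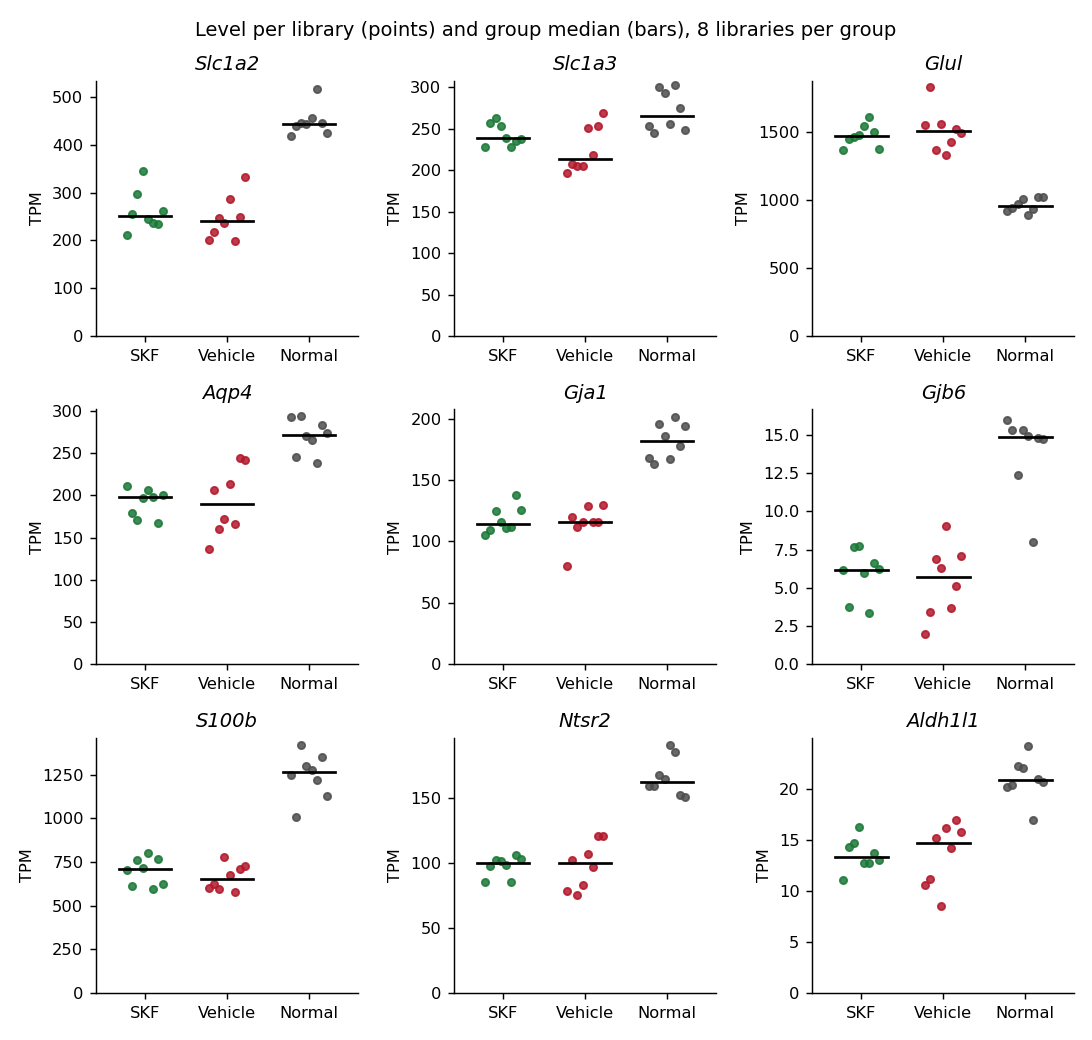
TPM of each of the 9 genes in the 24 libraries (points) with the group median (bars), SKF, Vehicle and Normal Control from left to right. By median 8 genes sit lower in both wounded groups than in Normal Control and Glul sits higher, with SKF and Vehicle overlapping in every panel.

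Slc1a2, the main glutamate transporter of forebrain astrocytes, had 212, 251 and 344 TPM (lowest, median and highest library) in SKF, 199, 241 and 332 TPM in Vehicle, and 419, 444 and 517 TPM in Normal Control. All 8 SKF and all 8 Vehicle libraries lay below the lowest Normal Control library. The log2 fold change was -0.88 ± 0.10 (SE) in SKF against Normal Control (edgeR adjusted p = 5.32e-08) and -0.996 ± 0.102 in Vehicle against Normal Control (edgeR adjusted p = 5.70e-09). Slc1a3, the other astrocyte glutamate transporter, ran at 228, 238 and 263 TPM in SKF, 197, 214 and 269 TPM in Vehicle, and 245, 265 and 302 TPM in Normal Control. Both wounded groups overlapped the Normal Control range for Slc1a3, the smallest change among the 9 genes. Its log2 fold change was -0.27 ± 0.07 in SKF (edgeR adjusted p = 0.00369) and -0.40 ± 0.07 in Vehicle (edgeR adjusted p = 5.41e-05), both against Normal Control. The SKF value had an adjusted p of 0.0568 and a log2 fold change of -0.16 when limma was run on log2(TPM + 1) without a filter on low values.

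The unequal fall of the transporters was tested as a ratio within each library. The TPM of Slc1a2 over that of Slc1a3 had a median of 1.03 in SKF (0.929 to 1.36), 1.10 in Vehicle (0.911 to 1.23) and 1.68 in Normal Control (1.48 to 1.79). No wounded library reached the lowest Normal Control ratio. The mean log2 ratio was lower by 0.63 in SKF and by 0.61 in Vehicle than in Normal Control, each with an adjusted p of 0.000466 (exact permutation test, two-sided, over every way to split the 16 libraries, Benjamini-Hochberg over 18 ratio tests, where 0.0001554 is the smallest unadjusted p possible). Between SKF and Vehicle the difference was -0.02 (exact permutation, adjusted p = 0.792). The 18 tests include the ratios of Glul to each transporter against Normal Control, which had to separate, as set out below. Their small p-values lower the adjusted p of other ratios that pass or nearly pass, here and below.

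Glul, whose product glutamine synthetase consumes the glutamate that astrocytes take up, went the other way. Its level was 1365, 1473 and 1613 TPM in SKF, 1328, 1507 and 1828 TPM in Vehicle, and 889.7, 957 and 1025 TPM in Normal Control. Every wounded library was above every Normal Control library. The log2 fold change was 0.51 ± 0.06 in SKF (edgeR adjusted p = 1.77e-07) and 0.52 ± 0.06 in Vehicle (edgeR adjusted p = 1.04e-07), both against Normal Control. Set against its substrate's transporters, the median TPM ratio of Glul to Slc1a2 was 5.98 in SKF, 6.34 in Vehicle and 2.19 in Normal Control. The ratio of Glul to Slc1a3 had medians of 5.91 in SKF, 6.59 in Vehicle and 3.55 in Normal Control. The mean log2 ratio of Glul to Slc1a2 was higher by 1.41 in SKF and by 1.52 in Vehicle than in Normal Control, a description without a test, since neither gene's ranges overlapped and the ratio had to separate. For Glul to Slc1a3 the difference was 0.77 in SKF and 0.91 in Vehicle against Normal Control, likewise without a test. The gap between the Glul ranges was wider than the overlap of the Slc1a3 ranges, so this ratio also had to separate. Between SKF and Vehicle the differences were -0.12 for Glul to Slc1a2 and -0.14 for Glul to Slc1a3 (exact permutation, adjusted p = 0.531 and 0.274).

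**Figure D2:**
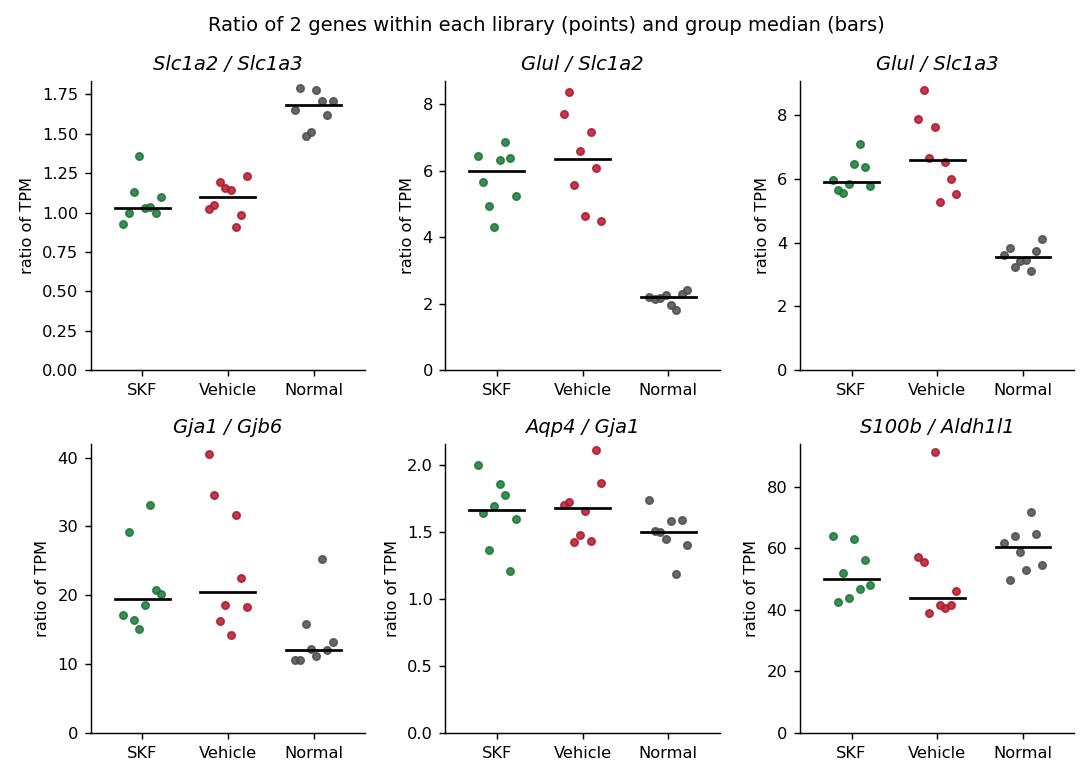
Ratio of the TPM of 2 genes within each library (points) with the group median (bars), for 6 pairs. The ratio Slc1a2 over Slc1a3 lies at 1.36 or below in all wounded libraries and at 1.48 or above in Normal Control, and the ratio Glul over Slc1a2 lies at 4.30 or above in wounded libraries and at 2.40 or below in Normal Control.

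Because Glul was the only member that was higher, the 250 bases upstream of its annotated starts are shown first. The windows come from RefSeq for the rat assembly GRCr8, whereas the reads were processed on mRatBN7.2, and all 9 genes had an entry, with 15 windows in all. Capitals mark matches on either strand to any of 5 motif strings. These were TATAAA (the TATA box), the CCAAT box, TGANTCA (the AP-1 consensus), TGACG (the core of the cAMP response element) and TTCNNNGAA (the STAT consensus).
Glul first window, GRCr8 chr13:68519250-68519499, plus strand: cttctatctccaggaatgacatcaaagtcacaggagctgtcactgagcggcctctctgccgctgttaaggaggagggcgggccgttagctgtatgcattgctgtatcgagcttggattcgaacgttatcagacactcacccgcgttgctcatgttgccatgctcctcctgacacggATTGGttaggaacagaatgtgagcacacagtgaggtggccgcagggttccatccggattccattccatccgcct
Glul second window, GRCr8 chr13:68575816-68576065, plus strand: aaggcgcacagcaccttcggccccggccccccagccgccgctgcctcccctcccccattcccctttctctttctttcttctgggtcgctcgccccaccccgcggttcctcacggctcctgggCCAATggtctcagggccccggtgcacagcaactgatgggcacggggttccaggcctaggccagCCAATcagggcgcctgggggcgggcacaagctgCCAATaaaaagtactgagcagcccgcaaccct
The first window held 1 CCAAT match on the opposite strand, beginning 74 bases before the start. The second held 3 CCAAT matches, beginning 128, 65 and 32 bases before the start. CCAAT was found in 34.0% of 33469 rat promoter windows of this length, TATAAA in 12.9%, TGANTCA in 6.34%, TGACG in 18.2% and TTCNNNGAA in 7.67%. The windows of Slc1a2 and of Slc1a3 held no match to any of the 5 strings. Among the other genes that were lower, CCAAT was found upstream of Aqp4 (1 match), Aldh1l1 (2) and S100b (3). The windows of Gja1, Gjb6 and Ntsr2 held no CCAAT match.

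Aqp4, the water channel of the endfeet, had 167, 197 and 211 TPM in SKF, 137, 189 and 244 TPM in Vehicle, and 238, 271 and 293 TPM in Normal Control. The SKF range lay wholly below the Normal Control range, while the top Vehicle library overlapped it. The log2 fold change was -0.60 ± 0.09 in SKF (edgeR adjusted p = 4.55e-06) and -0.61 ± 0.09 in Vehicle (edgeR adjusted p = 3.04e-06), both against Normal Control.

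Gja1 encodes connexin 43, the most abundant astrocyte connexin, and Gjb6 encodes connexin 30, its partner in mature astrocytes. Gja1 had 105, 114 and 138 TPM in SKF, 80.1, 116 and 129 TPM in Vehicle, and 163, 182 and 201 TPM in Normal Control. No wounded library reached the Normal Control range. Its log2 fold change was -0.73 ± 0.09 in SKF (edgeR adjusted p = 1.48e-07) and -0.79 ± 0.09 in Vehicle (edgeR adjusted p = 2.86e-08), both against Normal Control. Gjb6, the least abundant of the 9 genes, had 3.38, 6.18 and 7.71 TPM in SKF, 1.98, 5.71 and 9.01 TPM in Vehicle, and 7.97, 14.9 and 15.9 TPM in Normal Control. The SKF libraries stayed below all of Normal Control, and Vehicle overlapped it through the lowest Normal Control library, replicate 6. These levels rested on 136 to 299 reads per library in SKF, 64 to 331 in Vehicle and 292 to 641 in Normal Control. Its log2 fold change was the largest of the 9, at -1.32 ± 0.23 in SKF (edgeR adjusted p = 4.19e-05) and -1.47 ± 0.23 in Vehicle (edgeR adjusted p = 1.04e-05), both against Normal Control.

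The connexins differed in the size of their fall. The median TPM ratio of Gja1 to Gjb6 was 19.4 in SKF, 20.5 in Vehicle and 12.1 in Normal Control. The ranges overlapped, running from 15.1 to 33.1 in SKF, from 14.3 to 40.5 in Vehicle and from 10.5 to 25.3 in Normal Control. The mean log2 ratio was higher by 0.62 in SKF (adjusted p = 0.0234, exact permutation) and by 0.78 in Vehicle (adjusted p = 0.0208, exact permutation) than in Normal Control. The ratio of Aqp4 to Gja1, which meet at the same endfeet, did not pass in SKF (difference 0.13, adjusted p = 0.321, exact permutation) or in Vehicle (difference 0.16, adjusted p = 0.176, exact permutation) against Normal Control.

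The upstream windows of the connexin genes are shown because the genes fell by unequal amounts.
Gja1 window, GRCr8 chr20:36302314-36302563, plus strand: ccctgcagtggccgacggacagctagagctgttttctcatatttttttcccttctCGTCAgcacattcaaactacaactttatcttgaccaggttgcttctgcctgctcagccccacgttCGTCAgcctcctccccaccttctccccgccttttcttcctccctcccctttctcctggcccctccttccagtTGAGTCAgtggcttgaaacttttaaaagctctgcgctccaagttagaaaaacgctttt
Gjb6 first window, GRCr8 chr15:35410139-35410388, minus strand: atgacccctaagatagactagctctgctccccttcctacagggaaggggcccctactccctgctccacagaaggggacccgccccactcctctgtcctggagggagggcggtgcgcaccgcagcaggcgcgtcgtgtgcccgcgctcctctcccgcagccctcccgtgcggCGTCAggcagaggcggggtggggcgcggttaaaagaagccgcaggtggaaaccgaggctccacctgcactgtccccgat
Gjb6 second window, GRCr8 chr15:35408963-35409212, minus strand: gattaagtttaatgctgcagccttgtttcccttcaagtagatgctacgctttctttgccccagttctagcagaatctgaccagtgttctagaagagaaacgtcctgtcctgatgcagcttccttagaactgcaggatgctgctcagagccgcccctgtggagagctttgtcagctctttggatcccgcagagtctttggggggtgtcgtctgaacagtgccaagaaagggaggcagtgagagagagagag
The Gja1 window held a TGANTCA match beginning 58 bases before the start, and TGACG matches on the opposite strand beginning 195 and 130 bases before it. The first Gjb6 window held 1 TGACG match on the opposite strand, beginning 79 bases before the start, and the second held none of the 5 strings. A match is a string in this window and was not tested as a binding site.

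Markers of brain region varied between libraries. The summed TPM of 7 thalamus markers ran from 90.1 to 261 in SKF, from 81.3 to 168 in Vehicle and from 38.2 to 481 in Normal Control. Of the 7 markers 6 fell in each wounded group against Normal Control, beside 24.7% of all genes in SKF and 27.1% in Vehicle. Normal Control 6 had the lowest thalamus sum of all 24 libraries, 38.2 TPM, the highest summed level of 8 striatum markers, 5119 TPM against 212 to 1227 TPM in the other Normal Control libraries, and the lowest Gjb6 level of its group, 7.97 TPM. The same library had the highest Slc1a2, Slc1a3 and Gja1 and the lowest Aqp4 and Aldh1l1 of the Normal Control group. Normal Control 3, with the next lowest thalamus sum of its group, 125 TPM, had the next lowest Gjb6 level, 12.4 TPM. Slc1a3 ran the other way in that group, at 302 and 301 TPM in Normal Control 6 and 3 and at 253 and 245 TPM in Normal Control 1 and 2, which had the highest thalamus sums, 481 and 413 TPM. Without Normal Control 6 the log2 fold change of Gjb6 was -1.40 in SKF and -1.55 in Vehicle, both against Normal Control. The wounded libraries with sums of 113 to 134 TPM, near that of Normal Control 3, varied in Gjb6. It was 3.46 TPM in Vehicle 2, 6.27 in Vehicle 4, 9.01 in Vehicle 5, 5.95 in SKF 5 and 3.38 in SKF 6. Among Vehicle libraries the lowest sum, 81.3 TPM in Vehicle 8, came with 7.07 TPM of Gjb6. The highest, 168 TPM in Vehicle 6, came with 3.66 TPM. In SKF the highest sum, 261 TPM in SKF 4, came with the highest Gjb6 level of that group, 7.71 TPM. The part of tissue composition in the changes of Gjb6 and the other members was not tested.

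**Figure D3:**
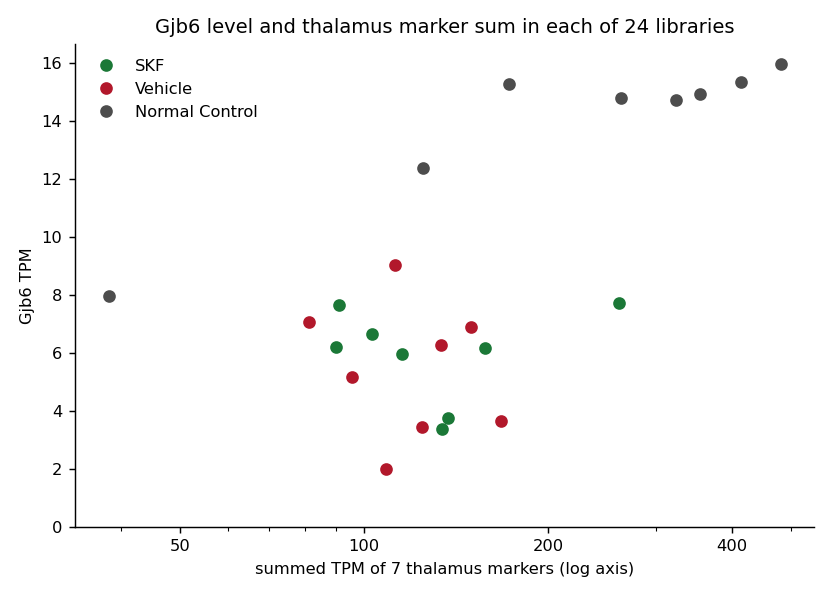
Gjb6 TPM against the summed TPM of 7 thalamus markers (log axis) in each of the 24 libraries. Normal Control 6 stands at the far left with 38.2 and 7.97 TPM, and the other Normal Control libraries lie at 12.4 TPM of Gjb6 or above.

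S100b, Ntsr2 and Aldh1l1 are used mainly as astrocyte markers. S100b encodes a calcium-binding protein that is released after brain injury and is also made by some oligodendrocyte lineage cells. It had 597, 711 and 804 TPM in SKF, 577, 649.6 and 775 TPM in Vehicle, and 1009, 1264 and 1418 TPM in Normal Control. No wounded library came near the lowest Normal Control library. Its log2 fold change of -0.93 ± 0.08 in SKF (edgeR adjusted p = 3.00e-10) and -1.04 ± 0.08 in Vehicle (edgeR adjusted p = 2.96e-11), both against Normal Control, had the smallest p of the 9 genes in each comparison. The summed level of 10 oligodendrocyte markers also had a lower median in both wounded groups. It ran from 7140 to 11572 TPM in SKF, 9192 to 13567 TPM in Vehicle and 10757 to 20181 TPM in Normal Control. These sums overlapped Normal Control in both wounded groups only through Normal Control 6, at 10757 TPM. The other Normal Control libraries had sums of 15177 TPM or above, higher than every wounded library. The S100b ranges did not overlap Normal Control in either wounded group. Of the 10 markers 9 fell in each wounded group, beside 24.7% of all genes lower in SKF and 27.1% in Vehicle. The part of oligodendrocyte RNA in the S100b change was not tested. Its window upstream of the start is shown for its 3 CCAAT matches, beginning 246, 135 and 38 bases before the start, the last on the opposite strand.
S100b window, GRCr8 chr20:12381082-12381331, minus strand: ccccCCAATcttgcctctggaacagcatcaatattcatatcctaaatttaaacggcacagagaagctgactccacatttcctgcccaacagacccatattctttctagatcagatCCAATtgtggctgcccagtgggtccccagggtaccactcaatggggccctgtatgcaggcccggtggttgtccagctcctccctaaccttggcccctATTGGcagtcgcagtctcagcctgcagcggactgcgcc

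Ntsr2, a neurotensin receptor found mainly on astrocytes in rodent brain, had 84.9, 99.7 and 106 TPM in SKF, 75.4, 99.5 and 121 TPM in Vehicle, and 150.5, 162 and 190.1 TPM in Normal Control. Neither wounded group overlapped Normal Control. The log2 fold change was -0.87 ± 0.09 in SKF (edgeR adjusted p = 1.72e-08) and -0.89 ± 0.09 in Vehicle (edgeR adjusted p = 1.00e-08), both against Normal Control. Aldh1l1, a folate enzyme widely used to label astrocytes, had 11.0, 13.3 and 16.3 TPM in SKF, 8.49, 14.7 and 17.0 TPM in Vehicle, and 17.0, 20.8 and 24.2 TPM in Normal Control. The highest Vehicle library and the lowest Normal Control library were almost level. The log2 fold change was -0.73 ± 0.11 in SKF (edgeR adjusted p = 3.39e-06) and -0.75 ± 0.11 in Vehicle (edgeR adjusted p = 1.87e-06), both against Normal Control. The ratio of S100b to Aldh1l1 did not pass in SKF (difference -0.21, adjusted p = 0.118, exact permutation) or in Vehicle (difference -0.26, adjusted p = 0.191, exact permutation) against Normal Control. It passed without SKF 1 (-0.25, adjusted p = 0.0491, exact permutation) and without Vehicle 4 (-0.39, adjusted p = 0.0104, exact permutation). The value without SKF 1 lies close to the threshold, and its adjustment includes the Glul ratios that had to separate.

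Counted over the 9 genes, the TPM ranges did not overlap for 8 genes between SKF and Normal Control, where 18.4% of all genes did not overlap, and for 6 genes between Vehicle and Normal Control, where the share was 20.0%. Slc1a3 was the overlapping gene in SKF, and Slc1a3, Aqp4 and Gjb6 were those in Vehicle. Between SKF and Vehicle no member was free of overlap, beside 0.0208% of all genes.

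For the effect of SKF-81297 itself, SKF against Vehicle, the 95% interval of each of the 9 genes included 0. The fitted difference was above 0 for 8 of them, beside a median of 0.001 over all genes. These 8 tended to vary together within groups, as given below, so their shared sign is not 8 separate observations. The log2 difference was 0.11 for Slc1a2 (95% interval -0.10 to 0.32) and 0.13 for Slc1a3 (-0.02 to 0.28), the gene with the lowest unadjusted p of the 9, 0.0888 (edgeR adjusted p = 0.937). It was -0.01 for Glul (-0.14 to 0.12), 0.01 for Aqp4 (-0.18 to 0.20) and 0.07 for Gja1 (-0.12 to 0.25). The widest interval belonged to Gjb6, with a difference of 0.15 (-0.33 to 0.64). S100b stood at 0.11 (-0.06 to 0.28), Ntsr2 at 0.02 (-0.18 to 0.21) and Aldh1l1 at 0.02 (-0.20 to 0.25). Some of these differences leaned on Vehicle 1. Without Vehicle 1 Gjb6 stood at 0.02, Slc1a3 at 0.10, Gja1 at -0.0014 and Aqp4 at -0.05. For these genes no other omission of 1 library gave a lower value. Slc1a2 stood at 0.07, S100b at 0.08, Ntsr2 at -0.028, Aldh1l1 at -0.03 and Glul at -0.01 without Vehicle 1. Omission of another library took these lower, to 0.05 for Slc1a2, 0.07 for S100b, -0.031 for Ntsr2, -0.05 for Aldh1l1 and -0.04 for Glul. For each gene the interval stopped short of the size of its change in Vehicle against Normal Control. Differences of a size within the interval remain possible. Over all 14421 genes edgeR called 0 in SKF against Vehicle, with 715 at an unadjusted p under 0.05, and DESeq2 called 6, none of them a member.

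**Figure D4:**
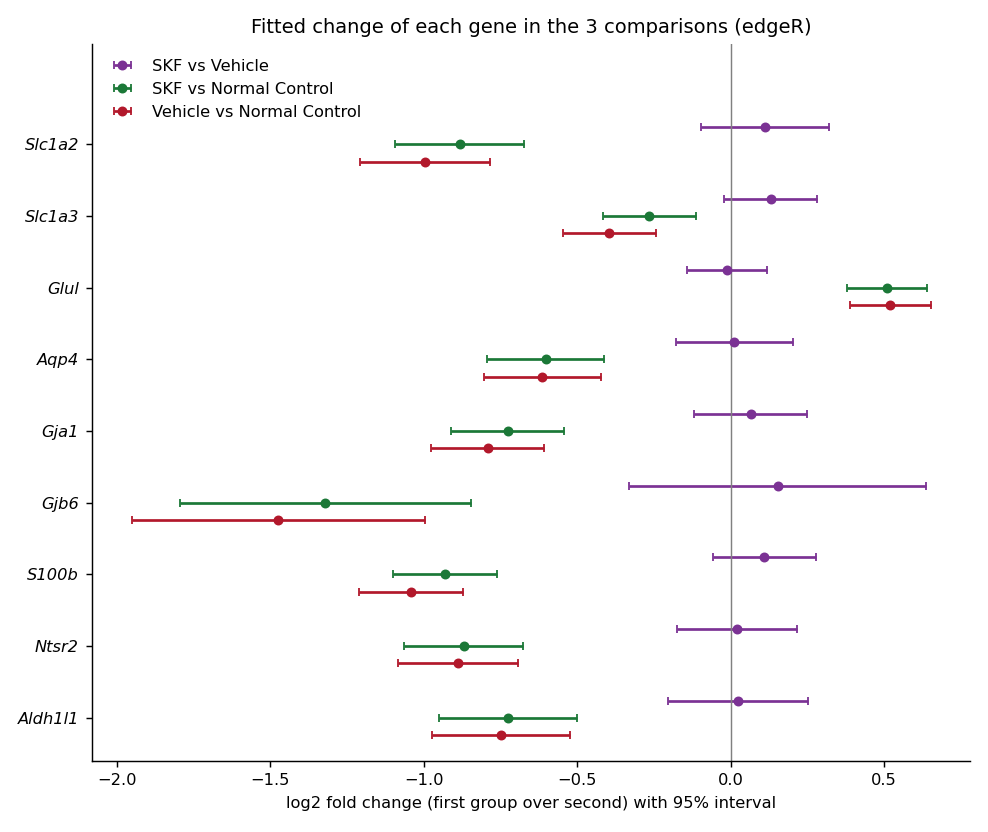
Fitted log2 fold change of each gene (points) with its 95% interval (bars) in the 3 comparisons. The SKF against Vehicle intervals all include 0, while the intervals of both wounded groups against Normal Control lie below 0 for 8 genes and above 0 for Glul.

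The order of the levels, set on the TPM scale, changed at the top. In SKF and in Vehicle Glul was the most abundant of the 9, above S100b in 8 of 8 libraries of each group, while in Normal Control S100b was above Glul in 8 of 8 libraries, although those ranges overlapped. Slc1a2 and Slc1a3 were neighbours with overlapping ranges in the wounded groups, Slc1a2 being higher in 5 of 8 SKF and 6 of 8 Vehicle libraries. In Normal Control Slc1a2 stood clear of both Aqp4 and Slc1a3, which overlapped each other. Below them the order was the same in all 3 groups, with Gja1, Ntsr2, Aldh1l1 and Gjb6 last, and Gja1 and Ntsr2 overlapped in each.

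Within groups the 8 genes that were lower tended to vary together. After the group means were taken out, Pearson r of log2 CPM (counts scaled to library size) over the 24 libraries was positive for 28 of 28 pairs of those 8, from 0.05 to 0.78 with a median of 0.49, and Spearman rho ran from 0.11 to 0.74. The highest values were 0.78 for Slc1a3 with Ntsr2, 0.75 for Slc1a2 with Slc1a3 and 0.70 for Slc1a3 with Gja1. Glul stood outside this pattern, with r from -0.30 (Gjb6) to 0.32 (Gja1). These are descriptions over libraries that share depth and tissue composition, with no test. Vehicle 1 was below its group's median for 8 of 8 of the genes that were lower, and Vehicle 5 and Vehicle 8 for 0 of 8. Without Vehicle 1 all 9 genes still passed in Vehicle against Normal Control.

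The genes whose within-group pattern was most like each member's were picked by the same correlation among 12454 genes. For Slc1a2 they were Prex2 (r = 0.82), Myorg (0.79) and Nlgn1 (0.78), and for Slc1a3 they were Ttyh1 (0.83), Neurl1 (0.82) and Sgsm2 (0.81). Glul was nearest to Pkn3 (0.80), Anp32e (0.76) and a numbered copy of Tmem167b (0.76). Aqp4 was nearest to Scd2 (0.87), a fatty acid desaturase, then Mmd2 (0.80) and Add3 (0.79). Gja1 was nearest to Meltf (0.85), the mitochondrial gene Mt-co3 (0.83) and Gpm6b (0.83), and Gjb6 to Kcng4 (0.84), Fzd9 (0.82) and Timp4 (0.82). S100b had the weakest neighbours, Fech (0.72), Wasf3 (0.70) and Tnfrsf11b (0.67). Ntsr2 was nearest to Tst (0.85), the endfoot membrane gene Mlc1 (0.83) and the lipid carrier gene Apoe (0.82), and Aldh1l1 to Btbd17 (0.87), Mapt (0.86) and the astrocyte serine transporter gene Slc7a10 (0.82).

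Other genes of the same pathways were read from lists of genes by function. The counts of each list, here and below, stand beside 24.7% of all genes lower and 25.5% higher in SKF against Normal Control. In Vehicle against Normal Control the shares were 27.1% lower and 26.9% higher. Of 25 further genes of glutamate and glutamine handling, 3 rose and 15 fell in SKF and 2 rose and 16 fell in Vehicle, both against Normal Control, with list medians of -0.42 in SKF and -0.48 in Vehicle on the log2 scale. Glud1, glutamate dehydrogenase, had median levels of 203 TPM in SKF, 199 TPM in Vehicle and 323 TPM in Normal Control. Its log2 fold change was -0.78 ± 0.05 in SKF and -0.80 ± 0.05 in Vehicle against Normal Control (edgeR adjusted p = 2.34e-12 and 1.33e-12). Aldh5a1, which ends the breakdown of GABA, changed by -0.74 ± 0.07 in SKF and by -0.81 ± 0.07 in Vehicle (edgeR adjusted p = 6.31e-10 and 8.76e-11). Against the list, Slc1a5, a neutral amino acid transporter that carries glutamine, had medians of 21.6 TPM in SKF, 21.4 TPM in Vehicle and 5.12 TPM in Normal Control. It rose by 1.88 ± 0.16 in SKF and by 2.00 ± 0.16 in Vehicle on the log2 scale (edgeR adjusted p = 2.09e-10 and 5.67e-11). Slc38a2, a further glutamine carrier, rose by 0.37 ± 0.09 in SKF and 0.34 ± 0.09 in Vehicle (edgeR adjusted p = 0.000790 and 0.00162).

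Of 21 genes of water and potassium handling and endfoot anchoring, 0 rose and 14 fell in SKF, and 1 rose and 15 fell in Vehicle, both against Normal Control (medians -0.40 in SKF and -0.46 in Vehicle). Dtna, which encodes the anchoring protein dystrobrevin alpha, changed by -0.54 ± 0.05 in SKF and -0.55 ± 0.05 in Vehicle. Hepacam, a cell adhesion gene of the endfoot, changed by -0.63 ± 0.08 in SKF and -0.71 ± 0.08 in Vehicle (edgeR adjusted p at most 1.19e-07 for both genes in both comparisons). The 1 gene that rose was Lrrc8a, a subunit of the volume-regulated anion channel, by 0.14 ± 0.06 in Vehicle (edgeR adjusted p = 0.0458), a call lost under 18 of 35 alternatives, and its value in SKF was 0.11 ± 0.06 (edgeR adjusted p = 0.109).

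The remaining connexin, pannexin and junction scaffold genes belong to several cell types. Of 22 listed, 11 had enough counts, of which 3 rose and 5 fell in SKF and 3 rose and 4 fell in Vehicle, both against Normal Control (both medians -0.08). Gjc3, a connexin gene of oligodendrocytes, had medians of 14.7 TPM in SKF, 13.1 TPM in Vehicle and 49.3 TPM in Normal Control, with log2 fold changes of -1.84 ± 0.13 in SKF and -1.88 ± 0.13 in Vehicle (edgeR adjusted p = 2.11e-11 and 1.08e-11). Gjd2, the neuronal connexin 36, changed by -1.38 ± 0.21 in SKF and by -1.67 ± 0.22 in Vehicle (edgeR adjusted p = 4.29e-06 and 2.85e-07). The vascular connexin genes rose, Gja5 by 1.06 ± 0.24 in SKF and 1.24 ± 0.24 in Vehicle (edgeR adjusted p = 0.000469 and 6.76e-05), and Gja4 by 0.82 ± 0.20 in SKF and 0.71 ± 0.20 in Vehicle (edgeR adjusted p = 0.00115 and 0.00378).

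Among 26 other genes of resting astrocytes 3 rose and 20 fell in each wounded group against Normal Control, with medians of -0.61 in SKF and -0.63 in Vehicle. Id4, a transcriptional regulator, changed by -1.17 ± 0.10 in SKF and -1.20 ± 0.10 in Vehicle, Ndrg2 by -0.73 ± 0.08 in SKF and -0.84 ± 0.08 in Vehicle, and the receptor gene Gpr37l1 by -0.73 ± 0.09 in SKF and -0.80 ± 0.09 in Vehicle (edgeR adjusted p at most 5.29e-08). Sdc4, a heparan sulfate proteoglycan, rose by 0.75 ± 0.12 in SKF and 0.70 ± 0.12 in Vehicle, and the secreted protease gene Htra1 by 0.54 ± 0.07 in SKF and 0.49 ± 0.07 in Vehicle (edgeR adjusted p at most 2.98e-05). Reactive astrocyte genes moved the other way, with 11 of the 11 tested raised in each wounded group (medians 2.88 in SKF and 2.91 in Vehicle). Serpina3n, the remaining gene of that list, was listed at 0 in every library. Timp1, an inhibitor of matrix proteases, had medians of 317 TPM in SKF, 335 TPM in Vehicle and 5.46 TPM in Normal Control, with a log2 fold change of 5.80 ± 0.20 in SKF and 5.94 ± 0.20 in Vehicle. Cd44, the hyaluronan receptor, rose by 3.79 ± 0.16 in SKF and 3.87 ± 0.16 in Vehicle, and Osmr, the oncostatin M receptor, by 3.04 ± 0.13 in SKF and 3.23 ± 0.13 in Vehicle (edgeR adjusted p at most 2.02e-15 for these 3 genes). Some of these genes, Cd44, Timp1 and Vim among them, are also made by immune or vascular cells.

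**Figure D5:**
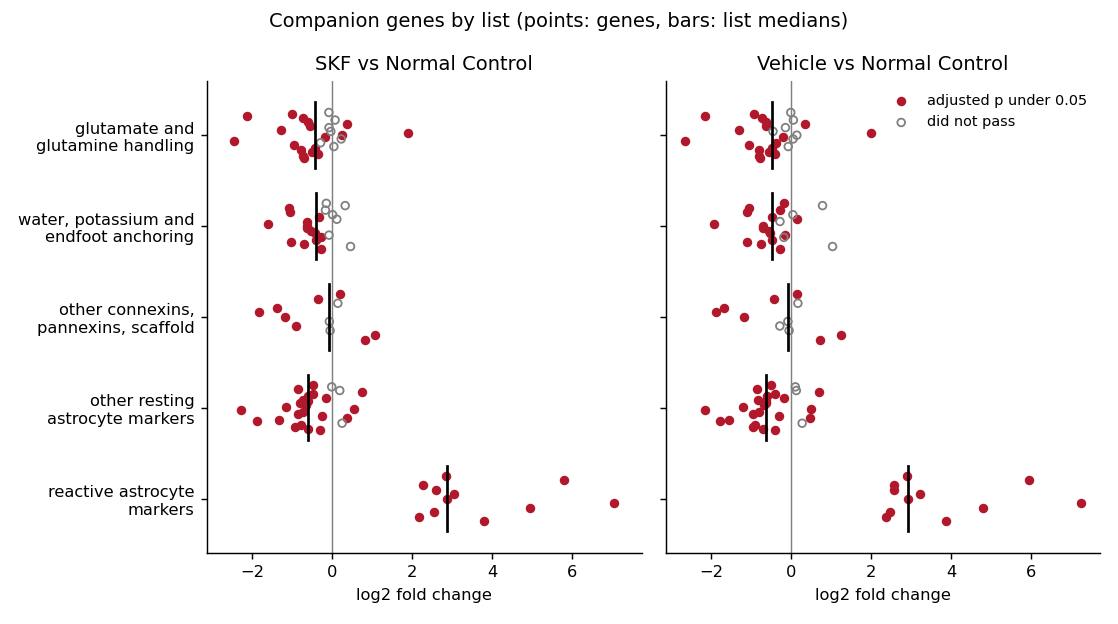
Log2 fold change of each tested companion gene (points, filled where the edgeR adjusted p was under 0.05) with the list median (bars), in SKF and in Vehicle against Normal Control. The resting, glutamate and endfoot lists have medians between -0.63 and -0.40, the junction list -0.08, and the reactive list 2.88 and 2.91.

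Between SKF and Vehicle edgeR called 0 genes in each of these 5 lists, and at an unadjusted p under 0.05 the junction list held 1 gene and the others 0. That gene, singled out after its values were seen, was Gjb2, encoding connexin 26, with medians of 4.79 TPM in SKF, 7.23 TPM in Vehicle and 8.29 TPM in Normal Control. Its log2 difference between SKF and Vehicle was -0.63 ± 0.23 (95% interval -1.09 to -0.17, edgeR adjusted p = 0.889).

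Markers of other cell types were counted in the same comparisons, and their part in the changes of the 9 genes was not tested. The counts stand beside 24.7% of all genes lower and 25.5% higher in SKF against Normal Control. In Vehicle against Normal Control the shares were 27.1% lower and 26.9% higher. The summed level of 10 neuron markers ran from 4980 to 5965 TPM in SKF, from 3711 to 6194 TPM in Vehicle and from 5298 to 6920 TPM in Normal Control, with 4 of 10 lower in SKF and 6 of 10 in Vehicle. The 12 microglia and macrophage markers summed to 469 to 609 TPM in SKF, 532 to 669 TPM in Vehicle and 251 to 358 TPM in Normal Control, with 7 higher and 3 lower in SKF and 8 higher and 2 lower in Vehicle. Of 7 oligodendrocyte precursor markers 5 fell in each wounded group, of 7 ependyma markers 4 fell, and of 8 cortex markers 3 rose and 3 fell in SKF and 2 rose and 3 fell in Vehicle. Of 9 endothelium markers 4 rose and 4 fell in SKF and 4 rose and 2 fell in Vehicle. None of 8 striatum markers passed in either comparison by edgeR, with 1 and 0 at an unadjusted p under 0.05. No marker of these lists was at 0 in all libraries of a group.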

How the data were processed

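Poly(A) RNA-seq of 24 rat brain samples was deposited as 1 table of read counts per gene and 1 of TPM per gene, both made by the authors. Per the submitters' processing notes the build was mRatBN7.2. No source used here names the aligner or counter. The deposited counts are whole numbers and the deposited TPM columns each sum to 1000000. Groups came from the sample titles, and 0 value columns were left unused.

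Counts were fitted with edgeR 4.0.16 in R 4.3.3 (TMM scaling, a filter on low counts by group, robust quasi-likelihood F test, 1 model over the 24 libraries, 21 residual df, Benjamini-Hochberg over 14421 genes, threshold 0.05). The biological coefficient of variation was 16.2%. Depth was 8911339 to 12383368 counts per library, and counting error weighs most on genes with few reads, Gjb6 and Aldh1l1 among the members. Ratios of 2 genes used log2 CPM (prior count 2) and a two-sided exact permutation test that listed every split with NumPy 2.4.6. Spearman rho came from SciPy 1.17.1. Alternatives were DESeq2 1.42.0, RLE scaling, other filters, limma 3.58.1 on log2(TPM + 1) and log2(TPM + 0.1), 2 groups only, a replicate block, 1 surrogate variable from sva 3.50.0, leaving out Normal Control 4 and 6 together, and leaving out each library. The code was tested on simulated data.

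The members, lists and pairs were chosen with earlier results of these data known. All 9 members are named, then in each of 5 companion lists the 3 genes with the smallest p in Vehicle against Normal Control and up to 2 that passed against the list, and the 3 genes most correlated with each member; 2 of the list genes so chosen are not reported here. Within groups, 84 pairs of libraries differed by a chi-square per degree of freedom of 4.85 to 43.2, so none was taken as a repeat. Flt1, Foxj1 and Tac1, from the marker lists, were not analysed here. Promoter windows are those of RefSeq GRCr8 and were not used in any test.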

Additional observations from a re-analysis of the deposited data

Results flagged for a closer look

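In 45 groups of 8 libraries (9 genes and 6 ratios in 3 groups), 7 had an end library set apart from the rest by Dixon's gap criterion, and chance alone gives about 1 in 20. In SKF, the Slc1a2 over Slc1a3 TPM ratio of SKF 4 was 1.36, with the next at 1.13 and a group median of 1.03. In Vehicle, Glul in Vehicle 2 was 1828 TPM, with the next at 1561 and a median of 1507. Also in Vehicle, Gja1 in Vehicle 1 was 80.1 TPM, with the next at 112 and a median of 116. The S100b over Aldh1l1 ratio of Vehicle 4 was 91.4, with the next at 57.0 and a median of 43.9. In Normal Control, 3 of the 7 came from 1 library, Normal Control 6. It had 517 TPM of Slc1a2 (next 455, median 444), 7.97 TPM of Gjb6 (next 12.4, median 14.9) and a Gja1 over Gjb6 ratio of 25.3 (next 15.8, median 12.1). Without Normal Control 6 the log2 fold change of Slc1a2 was -0.83 in SKF and -0.95 in Vehicle, both against Normal Control.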

How the results depend on the processing

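The counts of 9, 9 and 0 called genes (SKF against Normal Control, Vehicle against Normal Control, SKF against Vehicle) were within 1.5 times the reported count in 105 of 105 recomputations, and 944 of 945 gene values kept their side of the threshold. The exception was Slc1a3 in SKF against Normal Control under limma on log2(TPM + 1) without a filter, at -0.16 (adjusted p = 0.0568), which made that count 8; the cause was not tested. Over all genes, DESeq2 called 6 in SKF against Vehicle where edgeR called 0. Leaving out 1 library at a time, the S100b over Aldh1l1 log2 difference ran from -0.25 to -0.17 in SKF and from -0.39 to -0.21 in Vehicle, both against Normal Control, and passed only without SKF 1 and without Vehicle 4. In all, 484 of 486 ratio recomputations kept their side of the threshold, a count that includes the Glul ratios that had to separate. No value that passed changed sign, but in SKF against Vehicle, where none passed, 20 of 315 gene values and 5 of 162 ratio values did. Leaving out 1 library at a time, those ran from -0.05 to 0.07 for Aqp4, -0.0014 to 0.09 for Gja1, -0.03 to 0.07 for Ntsr2, -0.05 to 0.08 for Aldh1l1 and -0.04 to 0.04 for Glul, and from -0.08 to 0.03 for Aqp4 over Gja1 and -0.07 to 0.01 for Slc1a2 over Slc1a3. The labels do not say that replicate numbers pair the libraries, and no sign of pairing was seen. Of 24 same-number pairs 0 correlated above 0.1 (median r -0.03), and 0 of 24 libraries correlated best with its own number. A pairing of small effect could escape this check. With the replicate block all genes called numbered 6830, 7434 and 0 in the 3 comparisons, against 7239, 7783 and 0 without it, and members called stayed at 9, 9 and 0. Depth limits Gjb6, at 64 to 641 reads per library, and Aldh1l1, at 124 to 406, more than the other members. The 95% interval of the SKF against Vehicle difference is widest for Gjb6. The coefficient of variation of its TPM was 27.1% in SKF and 42.5% in Vehicle. For Aldh1l1 it was 11.6% in SKF and 22.8% in Vehicle. The part of depth in the width of the Gjb6 interval was not tested.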

Other observations

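The genes named here beside the 9 members were singled out after their values were seen. Slc6a11, the astrocyte GABA transporter GAT-3, had 33.9, 40.4 and 55.7 TPM (lowest, median and highest) in SKF, 20.9, 36.4 and 73.8 TPM in Vehicle, and 57.3, 179 and 256 TPM in Normal Control, with log2 fold changes of -2.14 ± 0.24 in both wounded groups (edgeR adjusted p = 1.25e-07 in SKF and 1.05e-07 in Vehicle). Cldn10, a claudin of astrocytes, had medians of 9.21 TPM in SKF, 11.4 TPM in Vehicle and 35.3 TPM in Normal Control, with log2 fold changes of -1.87 ± 0.23 in SKF and -1.78 ± 0.22 in Vehicle against Normal Control (edgeR adjusted p = 1.36e-07 and 2.45e-07). Slc25a18, a mitochondrial glutamate carrier, had medians of 28.8 TPM in SKF, 28.7 TPM in Vehicle and 69.1 TPM in Normal Control, with log2 fold changes of -1.28 ± 0.14 in SKF and -1.31 ± 0.14 in Vehicle. By contrast Sox9, a transcription factor that marks astrocyte nuclei, had medians of 24.7 TPM in SKF, 26.2 TPM in Vehicle and 24.5 TPM in Normal Control and did not pass, with log2 differences of -0.02 ± 0.10 in SKF and 0.11 ± 0.10 in Vehicle against Normal Control. Slc7a11, the cystine and glutamate exchanger, did not pass either, at -0.09 ± 0.11 in SKF and -0.01 ± 0.11 in Vehicle.

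The spread of the 9 genes within the wounded groups was unequal. The coefficient of variation of TPM was lower in SKF than in Vehicle for 8 of 9 members, with a median over the members of 9.28% in SKF and 18.3% in Vehicle, beside 8.75% in Normal Control. Over all 14421 genes tested it was lower in SKF for 55.7%, with medians of 13.0% in SKF and 14.1% in Vehicle. The members share their libraries, so this is a description of 16 libraries and was not tested.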
